A study of Mus musculus with 8 samples.

Results

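The glycolytic enzymes are described here as a set of 10 genes, from hexokinase to lactate dehydrogenase, in microglia sorted by whether they carried injected plasma protein. The genes were taken by symbol from the deposited count table (Hk2, Gpi1, Pfkl, Aldoa, Tpi1, Gapdh, Pgk1, Pgam1, Pkm and Ldha), and they are 10 of its 35583 genes. They fill 11 rows, because Aldoa is listed under 2 identifiers. The mice were young and wild-type, and both groups were sorted from their hypothalamus 20 hours after an injection of dye-labelled plasma protein. One group is plasma-negative microglia and the other plasma-positive microglia, with 4 bulk Smart-seq2 libraries each. The injection was therefore shared by both groups, which differ by the dye signal of the sorted cells, and no uninjected animals were among the samples. The labels do not say whether the replicates were separate animals or pools, so p-values measure only the spread between these libraries, which may be technical.

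Glycolysis splits glucose into pyruvate in the cytosol. Hexokinase, phosphofructokinase and pyruvate kinase catalyse the steps that are effectively irreversible, and lactate dehydrogenase then converts pyruvate to lactate or back. Microglia, the resident macrophages of the brain, take up glucose and are known to shift between glycolysis and mitochondrial respiration when they are activated. Transcript levels do not measure enzyme activity or flux.

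The libraries held 2963094 to 21422738 counts, the lowest in plasma-negative replicate 4. Summed microglia markers stood at 60793 to 71574 CPM (counts relative to library size, adjusted by TMM factors) in the plasma-negative libraries and 67075 to 72107 in the plasma-positive ones, so the label of the cells was borne out by their markers. Of the 10, 1 was called higher in the plasma-positive group, the receptor gene Csf1r (log2 fold change 0.28, edgeR adjusted p = 0.0049). None was called lower, where 0.844% of all tested genes were called higher and 0.565% lower. The plasma-positive libraries lay above all plasma-negative ones for 3 of the 10 and below all for 1. Of all tested genes, 5.68% and 4.59% did so. Markers of other cells were low but uneven. The neuron list summed to 4.71 to 35.3 CPM in plasma-negative libraries and 6.75 to 332 in plasma-positive ones, with the highest value in plasma-positive replicate 2, which also had the highest oligodendrocyte sum. That list stood at 308, 542, 280 and 222 CPM in plasma-positive replicates 1 to 4 and at 158 to 230 in plasma-negative libraries, so 3 of the 4 lay above the plasma-negative range. Plasma-positive replicate 3 stood apart in the monocyte and neutrophil list, at 1346 CPM against 282 to 356 in plasma-negative libraries. Csf3r made up most of this sum in the other libraries, at 281 to 342 CPM in plasma-negative ones. It was at 311 CPM in plasma-positive replicate 3, where 9 genes of the list were above 3 counts, against 1 to 2 in plasma-negative libraries. Sums overlapped between the groups for the astrocyte list (208 to 324 against 201 to 272 CPM) and the endothelial list (27.3 to 52.7 against 22.6 to 65.1), and the border macrophage list was at 1.26 to 4.91 against 3.74 to 16.5 CPM. The astrocyte sum was mostly Slc1a3, at 196 to 317 CPM in plasma-negative and 164 to 197 in plasma-positive libraries (log2 fold change -0.36). Most genes of these 6 lists were too low to test (tested were 6 of 12 for neurons, 4 of 10 for astrocytes, 6 of 10 for oligodendrocytes, 2 of 10 for endothelial cells, 1 of 12 for monocytes and neutrophils and 2 of 9 for border macrophages), and none of those tested was called, where 1.41% of all tested genes were. The log2 fold change was positive for 6 of 6 neuron (median 2.09), 3 of 4 astrocyte (2.31) and 6 of 6 oligodendrocyte genes (1.26). It was positive for 1 of 2 endothelial (-0.68), 1 of 1 monocyte and neutrophil (0.07) and 2 of 2 border macrophage genes (2.09). Of all tested genes, 50.4% were positive. The proliferation list summed to 1.20 to 17.9 CPM in plasma-negative libraries and 40.5 to 123 in plasma-positive ones, and 3 of its 5 tested genes of 12 listed, Top2a, Ccnb2 and Cdc20, were called higher by edgeR, where 0.844% of all tested genes were. They had no plasma-negative library above 3 counts, so they passed the filter on low counts through the plasma-positive group alone, and the count supports nothing further. The list of genes induced by cell dissociation summed to 750 to 879 CPM in plasma-negative and 630 to 878 in plasma-positive libraries. Of its 12 genes, 7 had a plasma-negative library above 3 counts and 12 had a plasma-positive one. Egr1, an early response gene, stood at 1.79 to 12.4 CPM in plasma-positive libraries and was called higher (edgeR adjusted p = 0.0267), but it too had no plasma-negative library above 3 counts and passed the filter through the plasma-positive group alone. It was the 1 gene called higher of 8 tested, where 0.844% of all tested genes were, and 0 were called lower. Of the 8, 3 had a positive log2 fold change, with a median of -0.064. The part of these other cells, of cycling cells and of dissociation in the values below was not tested. In bulk RNA, fewer cells of a type and less RNA per cell cannot be told apart.

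Several of these enzymes have copies elsewhere in the genome, which bears on what their counts hold, so the copies are given before the values. The coding sequence of each gene was cut into overlapping windows of 60 bases and searched for in the transcripts of all other genes of GENCODE M21 (mouse build GRCm38). For Gapdh, 940 of 940 windows were found unchanged in another gene, over 159 pseudogenes. All 1192 windows of Pgk1 and all 703 of Pgam1 were likewise found elsewhere, in 4 and 3 pseudogenes. The share was 36.8% for Pkm, 24.7% for Gpi1, 19.4% for Ldha, 10.4% for Aldoa and 8.71% for Tpi1, while no window of Hk2 or Pfkl recurred. The sequences below are coding bases 61 to 120, counted from the first base of the start codon, and show how far a read can be told apart. The Gapdh stretch is identical in Gm12671 (chr4:91851668-91852669, minus strand), the Pgk1 stretch in Gm5537 (chr3:58102996-58104247, minus strand) and the Pgam1 stretch in Pgam1-ps2 (chr7:27469771-27470535, minus strand). The capital in the last line is the 1 base in which the Pkm copy Gm6560 (chr5:22724578-22726168, minus strand) differs from Pkm.
Gapdh and Gm12671: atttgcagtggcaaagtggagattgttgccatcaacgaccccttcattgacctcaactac
Pgk1 and Gm5537: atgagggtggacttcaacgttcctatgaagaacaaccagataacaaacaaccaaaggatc
Pgam1 and Pgam1-ps2: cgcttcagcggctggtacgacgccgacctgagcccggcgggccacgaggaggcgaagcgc
Pkm: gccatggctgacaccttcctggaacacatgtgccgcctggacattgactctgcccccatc
Gm6560: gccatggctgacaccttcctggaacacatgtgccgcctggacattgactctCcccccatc
The column names of the deposited tables say that only top hits were kept, but how reads with several equally good matches were counted is not given in the sources used here, so the values of Gapdh, Pgk1 and Pgam1 are uncertain, and those of Pkm less so.

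Of the 10 enzymes, only Pkm passed the test, higher in plasma-positive microglia, and this call was lost in 16 of 24 alternative settings. By edgeR's quasi-likelihood test with Benjamini-Hochberg adjustment over 13277 tested genes, 1 of the 10 was called higher at an adjusted p under 0.05 and 0 were called lower, where 0.844% of all tested genes were called higher and 0.565% lower (1.41% in either direction). All 10 passed the filter on low counts. At an unadjusted p under 0.05 there were 3 (Pkm, Gapdh and Aldoa), against 13.8% of all tested genes. The 4 plasma-positive libraries lay above all plasma-negative ones for 3 of the 10 (Gpi1, Gapdh and Pkm), where 5.68% of tested genes did so, and below all of them for 0 of 10, where 4.59% did so. The log2 fold change was positive for 8 of 10, against 50.4% of all genes, with a median of 0.31 against 0.01 over all genes. The median of the 10 was 0.19 when libraries were scaled by totals only, where the median of all genes was -0.11. It was lower with corrections for exon length (0.16) and for length and GC content (0.13, with 6 of 10 positive), and 0.10 with both and the replicate number as a block, with medians of all genes of -0.03, -0.01 and 0.02.

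**Figure D1:**
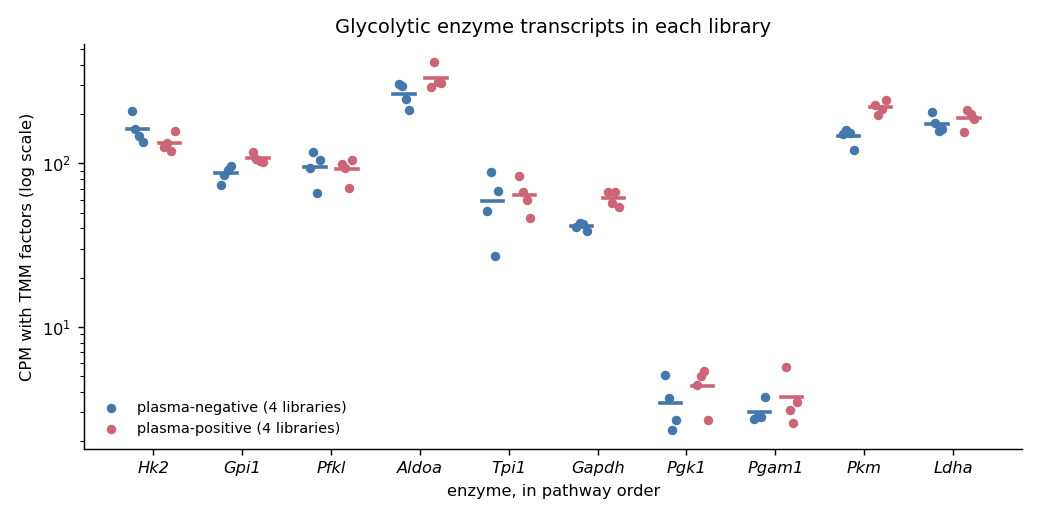
CPM of each enzyme in each library, on a log axis and in pathway order. Points are libraries and bars are group means. Pkm, Gapdh and Gpi1 are the 3 enzymes whose plasma-positive libraries all lie above the plasma-negative ones, and Pgk1 and Pgam1 lie far below the other 8.

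Compared per length, in the authors' RPKM (reads scaled to exon length and library size), the levels spanned a wide range. Aldoa was the highest with a mean of 79.1 RPKM over the 8 libraries, at the 97.4th percentile of tested genes, followed by Ldha with 42.1, Pkm with 28.2, Hk2 with 18.9 and Tpi1 with 17.1. Gpi1 (11.6), Pfkl (10.7) and Gapdh (9.57) were closer together. Pgk1 and Pgam1 were the lowest at 1.34 and 1.31 RPKM, near the 24.0th and 23.6th percentiles. In this order the library ranges of neighbours overlapped, except between Aldoa and Ldha and between Gapdh and Pgk1. The 3 enzymes lowest over all 8 libraries, Gapdh, Pgk1 and Pgam1, are the 3 whose coding windows were all found in other genes. The order was not the same in each group mean. Gapdh was below Pfkl in the plasma-negative group (7.30 and 10.4 RPKM) and above it in the plasma-positive group (11.8 and 11.003). Likewise Pfkl was above Gpi1 in the plasma-negative group (10.4 and 9.83 RPKM), and Tpi1 above Hk2 in the plasma-positive group (18.6 and 17.9). Whether the copies set those low levels was not tested. RPKM divides by the merged length of all annotated exons, for example 3310 bases for Ldha and 4133 for Gapdh, so a gene with a long rare isoform is listed lower.

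**Figure D2:**
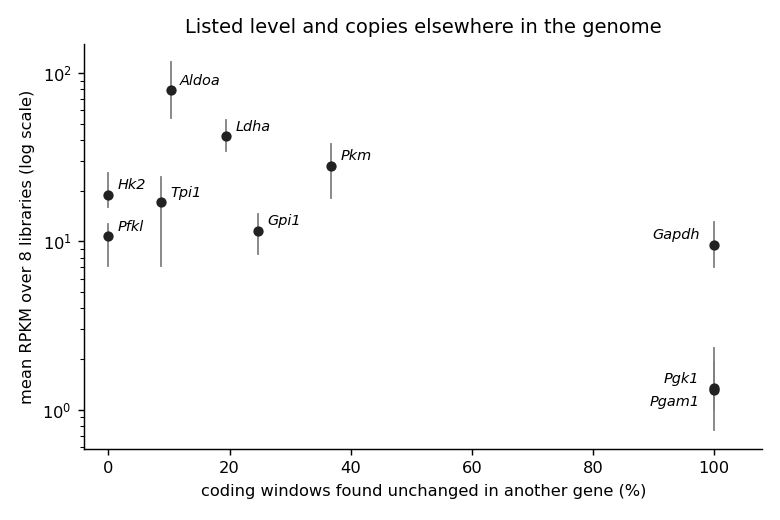
Mean RPKM over 8 libraries (log axis) against the percentage of 60-base coding windows found unchanged in another gene, for the 10 enzymes. Vertical lines span the lowest to the highest library. Gapdh (9.57 RPKM), Pgk1 (1.34) and Pgam1 (1.31) lie at 100% and are the 3 lowest in the mean of all libraries, while Pfkl (11.003) is below Gapdh (11.8) in the plasma-positive mean.

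None of the first 3 enzymes of the pathway passed the test in either direction. Hk2, hexokinase 2, traps glucose in the cell as glucose 6-phosphate (ENSMUSG00000000628, chr6:82725025-82774454, minus strand). It was measured at 208, 163, 147 and 135 CPM in plasma-negative replicates 1 to 4 and at 126, 133, 119 and 157 in plasma-positive replicates 1 to 4. The groups overlapped through plasma-positive replicate 4, and plasma-negative replicate 1 was the highest. The means were 163 ± 31.9 and 134 ± 16.5 CPM (SD, n = 4 each), and the log2 fold change of -0.29 (SE 0.16, 95% interval -0.64 to 0.06) did not pass (edgeR adjusted p = 0.479). Without plasma-negative replicate 1 it was -0.15.

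Gpi1, the isomerase that turns glucose 6-phosphate into fructose 6-phosphate, lies at chr7:34201330-34230336 (ENSMUSG00000036427, minus strand). Its values were 74.3, 85.2, 91.7 and 95.9 CPM in plasma-negative libraries and 117, 106, 104 and 102 in plasma-positive ones. Each plasma-positive library was above each plasma-negative one, by a narrow margin between 95.9 and 102. The log2 fold change was 0.31 (SE 0.15, interval -0.01 to 0.63) with an edgeR adjusted p of 0.378, so the separation did not pass. Of its exons, 11.5% overlap Gm26762 on the other strand, and whether reads were counted by strand is not given in the sources used here.

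Pfkl, the liver-type phosphofructokinase, commits fructose 6-phosphate to glycolysis (ENSMUSG00000020277, chr10:77986947-78010083, minus strand). The plasma-negative libraries gave 94.0, 117, 66.0 and 104 CPM and the plasma-positive ones 99.2, 93.4, 70.6 and 106. The 2 ranges lie nearly on top of each other, with replicate 3 the lowest in both groups. The log2 fold change was -0.05 (SE 0.20) and its 95% interval, -0.49 to 0.39, leaves room for a change of either sign (edgeR adjusted p = 0.951). It was 0.072 without plasma-negative replicate 2, 0.064 without plasma-positive replicate 3 and -0.19 without plasma-negative replicate 3.

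In the steps that cleave and interconvert the sugar phosphates, Aldoa was the most abundant of the set. Aldoa, aldolase A, cleaves fructose 1,6-bisphosphate into triose phosphates. Its main row (ENSMUSG00000030695, chr7:126795234-126800751, minus strand) was measured at 307, 296, 249 and 212 CPM in plasma-negative libraries and 294, 415, 315 and 310 in plasma-positive ones. Plasma-positive replicate 1 fell within the plasma-negative range, and replicate 2 was the highest of all 8. The means were 266 ± 44.1 and 334 ± 54.8 CPM (SD, n = 4), and the log2 fold change of 0.32 (SE 0.15) did not pass after adjustment (edgeR adjusted p = 0.356). Without plasma-positive replicate 2 it was 0.20. The row of the second identifier (ENSMUSG00000114515, chr7:126800790-126809108, minus strand) held 23 counts in plasma-positive replicate 1 and 0 in the other 7 libraries, and was too low to test.

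Tpi1, triose phosphate isomerase, interconverts the products of aldolase (ENSMUSG00000023456, chr6:124810586-124814296, minus strand). It varied most among the abundant enzymes, with 51.0, 89.0, 27.3 and 68.0 CPM in plasma-negative libraries and 83.4, 66.7, 59.9 and 46.6 in plasma-positive ones. The plasma-negative range enclosed the whole plasma-positive range. Its log2 fold change was 0.13 (SE 0.32, interval -0.57 to 0.83, edgeR adjusted p = 0.917). Over the fits that left out 1 library it went from -0.11, without plasma-negative replicate 3, to 0.41, without plasma-negative replicate 2, and it was also negative without plasma-positive replicate 1 (-0.019).

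Among the enzymes that work on the triose phosphates, Gapdh showed a clear gap between groups that did not pass the test. Gapdh makes the NADH of the pathway and is often used as a reference gene (ENSMUSG00000057666, chr6:125161715-125166467, minus strand). The plasma-negative libraries were tightly grouped at 41.0, 43.0, 42.4 and 38.7 CPM, and the plasma-positive ones were at 67.0, 57.5, 66.9 and 53.7. No library of one group reached the other. The means were 41.3 ± 1.90 and 61.3 ± 6.72 CPM (SD, n = 4), and the log2 fold change was 0.57 (SE 0.18, interval 0.17 to 0.97), with an edgeR unadjusted p of 0.00958 and an adjusted p of 0.174. It was not called under any of the 24 alternative settings tried (adjusted p 0.0715 to 0.484), and its sign was positive in each. Because every coding window of Gapdh is also present in other genes, the coding part of these counts cannot be assigned to the Gapdh locus alone.

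Pgk1 and Pgam1 follow. Pgk1, phosphoglycerate kinase 1, makes the first ATP of the pathway and lies on the X chromosome (ENSMUSG00000062070, chrX:106187100-106203699, plus strand). It was listed at 5.09, 3.65, 2.33 and 2.69 CPM in plasma-negative libraries and 4.40, 5.03, 5.38 and 2.68 in plasma-positive ones, from 8 to 115 counts a library. Pgam1, phosphoglycerate mutase 1, moves the phosphate group along the 3-carbon chain (ENSMUSG00000011752, chr19:41911923-41918660, plus strand). Its values were 2.75, 2.83, 2.79 and 3.70 CPM against 5.72, 3.10, 2.59 and 3.46, from 11 to 62 counts. For each of the pair the groups overlapped. The log2 fold changes were 0.34 (SE 0.70) and 0.30 (SE 0.72) with edgeR adjusted p of 0.895 and 0.913. The intervals ran from -1.19 to 1.88 and from -1.27 to 1.87, so a change of 2-fold in either direction is not excluded. Leaving out 1 library gave 0.19 to 0.59 for Pgk1 (without plasma-negative replicates 3 and 1) and 0.022 to 0.45 for Pgam1 (without plasma-positive replicates 1 and 3).

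Pkm, pyruvate kinase M, makes pyruvate and the last ATP of the pathway (ENSMUSG00000032294, chr9:59656368-59679375, plus strand). Alternative splicing of this gene gives the M1 and M2 forms, which gene counts cannot separate. It was measured at 151, 159, 153 and 121 CPM in plasma-negative replicates 1 to 4 and at 228, 198, 214 and 244 in plasma-positive replicates 1 to 4. All 4 plasma-positive libraries were above all 4 plasma-negative ones, with a gap between 159 and 198. The means were 146 ± 17.2 and 221 ± 19.7 CPM (SD, n = 4), a log2 fold change of 0.59 (SE 0.13, interval 0.31 to 0.88), or 1.51-fold. The edgeR adjusted p was 0.0474, at rank 184 of the 187 genes called. Without plasma-positive replicate 3, which had the highest monocyte and neutrophil sum, the log2 fold change was 0.61 (edgeR adjusted p = 0.0992). Without plasma-positive replicate 2, which had the highest neuron sum, it was 0.64 (edgeR adjusted p = 0.0788).

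The direction and size of the Pkm difference held while the call did not. Its log2 fold change stayed between 0.47 and 0.72 over 24 alternative settings, and the adjusted p ranged from 0.00142 (DESeq2) to 0.258 (edgeR with a length and GC correction and the replicate number as a block). In 8 of the 24 it stayed under the threshold, and in 16 it did not, among them each of the 8 fits that left out 1 library (log2 fold change 0.52 to 0.64, edgeR adjusted p 0.0711 to 0.128). Of its exons, 15.3% overlap Gm49759.

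**Figure D3:**
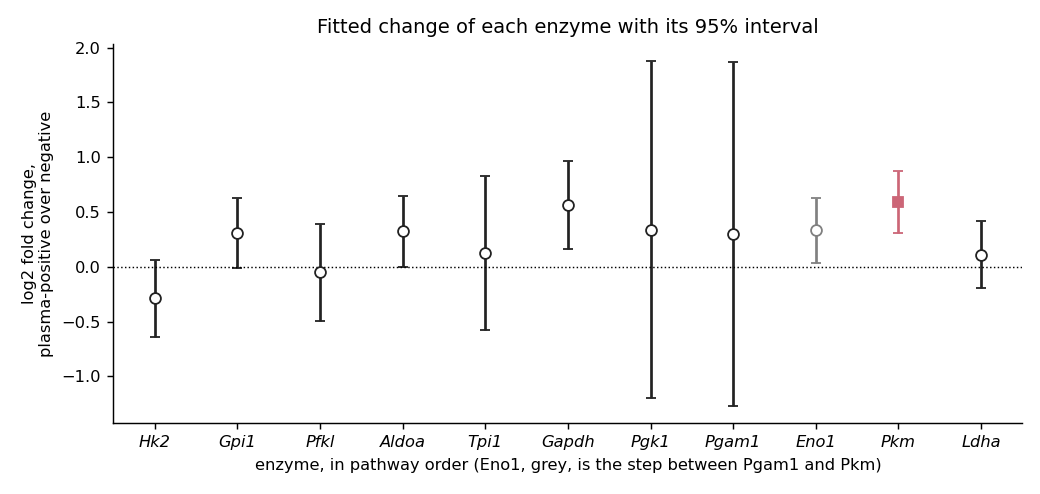
Fitted log2 fold change of each enzyme, plasma-positive over plasma-negative, with its 95% interval, in pathway order. The filled square is Pkm (0.59), the enzyme called at an adjusted p under 0.05, open circles were not called, and grey marks Eno1 (0.33), the enolase step between Pgam1 and Pkm.

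Ldha, the A subunit of lactate dehydrogenase, closes the set (ENSMUSG00000063229, chr7:46841475-46855627, plus strand). It was measured at 206, 176, 158 and 162 CPM in plasma-negative libraries and 155, 213, 201 and 187 in plasma-positive ones. Plasma-positive replicate 1 was the lowest of all 8, and the other plasma-positive libraries were spread around the highest plasma-negative value. The log2 fold change was 0.11 (SE 0.14, interval -0.20 to 0.41, edgeR adjusted p = 0.806), and it was -0.0058 when libraries were scaled by totals only. Leaving out 1 library gave 0.049, without plasma-positive replicate 2, to 0.20, without plasma-negative replicate 1.

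Eno1, enolase 1, which makes phosphoenolpyruvate for pyruvate kinase, is the step missing from the set. Its values were 107, 97.1, 85.4 and 103 CPM in plasma-negative libraries and 119, 126, 131 and 117 in plasma-positive ones, so the groups did not overlap. The log2 fold change was 0.33 (SE 0.14) and did not pass (edgeR adjusted p = 0.297), and 80.0% of its coding windows recur in other genes.

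The forms of each enzyme were then compared. Shares within a library do not depend on how the library was scaled, and each was tested by an exact permutation test (two-sided, 70 ways to split the libraries, smallest possible p 0.0286), with adjustment over the 4 shares. Ldha and Ldhb encode the subunits of lactate dehydrogenase, where A-rich enzyme is associated with lactate production and B-rich enzyme with lactate use. In RPKM, Ldha made up 26.1, 27.8, 23.3 and 24.6% of the pair in plasma-negative libraries and 15.4, 22.1, 19.7 and 17.9% in plasma-positive ones. Every plasma-positive library was below every plasma-negative one. The mean share was 25.5 ± 1.93% and 18.8 ± 2.86% (SD, n = 4), which is a change of -6.68 points (exact p = 0.0286, the smallest the design allows, and 0.114 after adjustment) that did not pass. With 4 shares, 1 share alone cannot go below 0.114 after adjustment. The Ldha share could have been called only if other shares also had a small p, and their exact p were 0.0857 to 0.229.

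Ldhb, the B subunit (ENSMUSG00000030246, chr6:142490249-142507957, minus strand), was itself called higher. It was measured at 277, 216, 246 and 235 CPM in plasma-negative libraries and 406, 355, 389 and 407 in plasma-positive ones, with no overlap. The means were 243 ± 25.3 and 389 ± 24.1 CPM (SD, n = 4), a log2 fold change of 0.68 (SE 0.11, edgeR adjusted p = 0.0103), or 1.60-fold. The call held in each of the 8 fits that left out 1 library (edgeR adjusted p 0.0185 to 0.0463). It did not hold after a correction for exon length (0.0765, log2 fold change 0.47) or for length and GC content (0.0934, and 0.166 with the replicate number also as a block). Ldhb was the higher subunit in every library in RPKM, since no library gave Ldha more than 27.8%. Of its coding windows, 28.6% recur in a pseudogene.

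**Figure D4:**
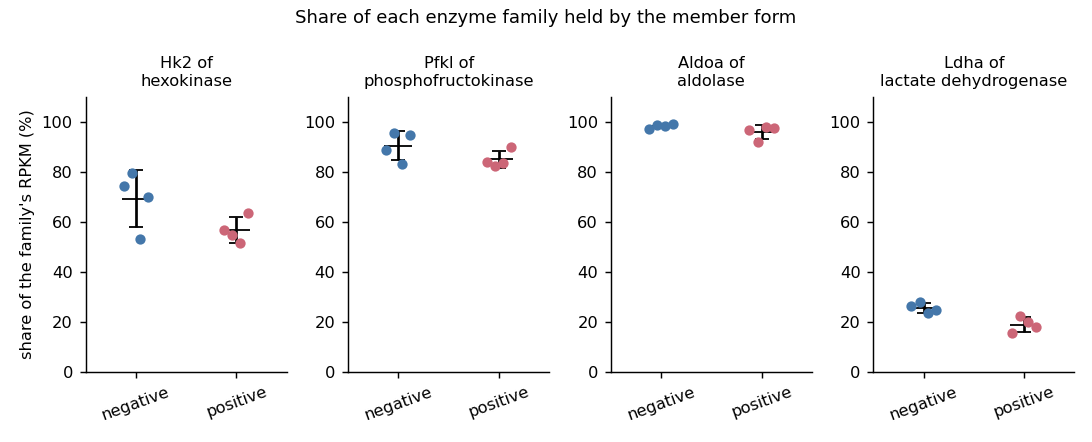
Percentage of an enzyme family's summed RPKM held by Hk2 (of Hk1, Hk2 and Hk3), Pfkl (of Pfkl, Pfkm and Pfkp), Aldoa (of Aldoa and Aldoc) and Ldha (of Ldha and Ldhb). Points are libraries and bars are the mean ± SD of 4. The means are lower in the plasma-positive group in all 4 panels, and the groups do not overlap for Ldha (23.3 to 27.8% against 15.4 to 22.1%).

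Hk2 was the main hexokinase, with 69.1 ± 11.4% of the RPKM of Hk1, Hk2 and Hk3 in plasma-negative libraries and 56.6 ± 5.12% in plasma-positive ones (SD, n = 4). The libraries gave 74.0, 79.4, 53.1 and 70.01% against 56.8, 54.7, 51.3 and 63.5%, and overlapped through plasma-negative replicate 3. The difference of -12.6 points did not pass (exact p = 0.114, adjusted 0.152). Hk3, the form best known from blood and immune cells, was the larger partner, at 40.7 ± 20.2 and 54.1 ± 9.39 CPM (SD, n = 4), and Hk1, the common brain form, stood at 13.9 ± 9.47 and 21.1 ± 9.14. Neither was called (log2 fold changes 0.40 and 0.61, edgeR adjusted p 0.645 and 0.706). Leaving out 1 library gave 0.21 to 0.79 for Hk3 and 0.32 to 1.15 for Hk1, in both cases lowest without plasma-negative replicate 2 and highest without plasma-negative replicate 3.

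Pfkl held 90.3 ± 5.85% of phosphofructokinase RPKM in the plasma-negative group and 84.9 ± 3.48% in the other (SD, n = 4). This difference did not pass (exact p = 0.229, adjusted 0.229). The muscle form Pfkm and the platelet form Pfkp had group means from 2.14 to 6.75 CPM, with log2 fold changes of 0.62 (SE 0.63) and 1.67 (SE 0.94) that were not called (edgeR adjusted p 0.742 and 0.485). Pfkm was at -0.11 after all libraries were thinned to the smallest total. Leaving out 1 library gave 0.44 to 0.84 for Pfkm and 1.13 to 2.61 for Pfkp (without plasma-positive replicate 2 and plasma-negative replicate 3). Aldoa held 98.2 ± 0.83% and 95.9 ± 2.82% of aldolase RPKM (SD, n = 4; exact p = 0.0857, adjusted 0.152). Aldoc, the aldolase form known from astrocytes and some neurons, was at 10.6, 4.59, 5.24 and 2.69 CPM in plasma-negative libraries and 10.9, 42.0, 8.07 and 9.50 in plasma-positive ones. The high library, plasma-positive replicate 2, also has the highest neuron, oligodendrocyte and astrocyte sums of its group, the last at 272 CPM against 201 to 221 in the other 3, with 10 astrocyte genes above 3 counts against 4 to 7. Without it, the log2 fold change of Aldoc was 0.70, against 1.58 with all libraries (edgeR adjusted p = 0.764 and 0.298), and the difference in the Aldoa share was -0.87 points, against -2.26 with all libraries. The part of other cells in this value was not tested.

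Within the groups, correlations between the 10 enzymes had both signs. Each enzyme's log2 CPM was taken as its deviation from the group mean, so that the difference between groups does not enter. Over 45 pairs of enzymes and 8 libraries, Pearson's r of these deviations was positive in 24, with a median of 0.04, from -0.85 to 0.77. The values are descriptive, and the libraries also differ in depth. The 2 enzymes with the largest fitted differences of opposite sign were Pkm and Hk2. The RPKM of Pkm was 0.867, 1.17, 1.24 and 1.07 times that of Hk2 in plasma-negative libraries and 2.16, 1.77, 2.13 and 1.85 times in plasma-positive ones, a ratio chosen after the values were seen and not tested. Summed over the set, the enzymes reached 1039 ± 113 CPM in the plasma-negative group and 1210 ± 58.0 CPM in the plasma-positive group (SD, n = 4). The 5 genes whose log2 CPM was most like the mean of the 10, among 5168 genes of at least 32 CPM, were Tnfrsf1b (r = 0.96 over 8 libraries), Hdac4 (0.96), Snap47 (0.94), Rpl6 (0.94) and Gmpr2 (0.94). Here the group difference was not removed. The mean log2 CPM of the 10 was 5.53 to 5.90 in plasma-negative and 5.91 to 6.10 in plasma-positive libraries. These r are the highest of 5168 and were not tested.

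Genes around the pathway were read from lists of known members. Among the other forms of the glycolytic enzymes, 1 of 12 tested genes was called higher (Ldhb) and 0 lower, where 0.844% and 0.565% of all tested genes were, with a median log2 fold change of 0.51 against 0.01 over all genes. No gene was called among 10 tested for glucose and lactate transport (median 0.05), 18 regulators of flux (0.02), 13 genes of pyruvate entry into mitochondria (0.36), 8 of the pentose phosphate pathway (0.17), 14 of glycogen, glycerol and other branches (0.34) or 10 other transcripts raised by low oxygen (0.20). In the citric acid cycle list, 1 of 16 was called higher and 0 lower (median 0.19), to be read against the same 0.844% and 0.565%.

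The gene called there was Idh3b, a subunit of the NAD-dependent isocitrate dehydrogenase. It was at 65.4, 52.6, 42.1 and 49.1 CPM in plasma-negative libraries and 104, 101, 88.6 and 90.8 in plasma-positive ones, without overlap. Its log2 fold change was 0.87 (SE 0.18, edgeR adjusted p = 0.0376). The call was lost in 12 of 22 alternatives, of which 7 were fits that left out 1 library (log2 fold change 0.78 to 1.003 and edgeR adjusted p 0.0437 to 0.115 over the 8). The others were scaling by totals only (0.0668), the length correction (0.0964), the length and GC correction (0.0934), the replicate number as a block (0.0775) and the last 2 together (0.170). Over these settings the log2 fold change was 0.75 to 0.89.

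For each list without a call, the gene with its highest mean CPM is given, a measure that does not allow for length. Slc2a5, the fructose transporter that marks microglia, was at 1433 ± 164 CPM in the plasma-negative group and 1664 ± 164 CPM in the plasma-positive group (SD, n = 4; log2 fold change 0.22, edgeR adjusted p = 0.338). Txnip, which limits glucose uptake, had a log2 fold change of 0.13 (edgeR adjusted p = 0.522), Tkt of the pentose phosphate pathway 0.05, the malate dehydrogenase Mdh1 0.22 and the collagen hydroxylase P4ha1 0.13. Leaving out 1 library gave 0.14 to 0.26 for Slc2a5, 0.098 to 0.17 for Txnip, -0.0040 to 0.16 for Tkt (negative without plasma-negative replicate 2 or 3, and -0.065 when scaled by library totals only), 0.12 to 0.37 for Mdh1 and 0.048 to 0.21 for P4ha1. Pdk1, the kinase that inhibits pyruvate dehydrogenase, was at 131, 140, 121 and 169 CPM in plasma-negative libraries and 105, 96.6, 128 and 101 in plasma-positive ones. Its groups overlapped through plasma-positive replicate 3, and the log2 fold change of -0.38 did not pass (edgeR adjusted p = 0.295).

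**Figure D5:**
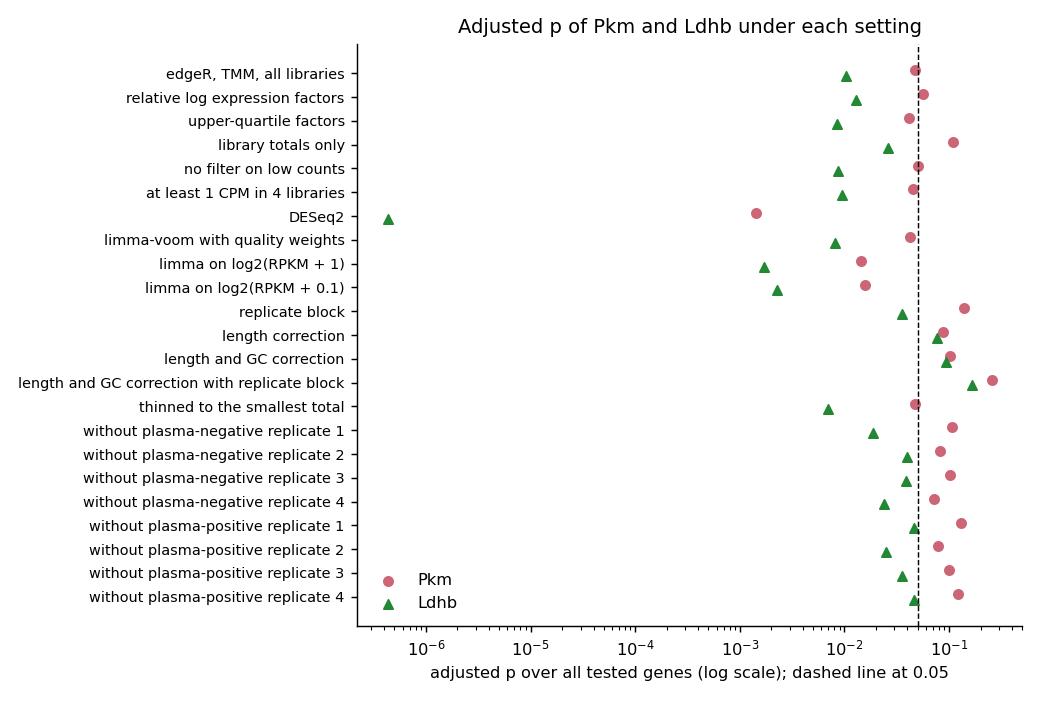
Adjusted p of Pkm (circles) and Ldhb (triangles) over all tested genes, on a log axis, for the fit described in the text and each alternative. The dashed line is 0.05. Pkm lies to the right of it in all 8 fits that leave out a library (0.0711 to 0.128), and Ldhb to the left in all of them (0.0185 to 0.0463).

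Glycolytic genes are known targets of the hypoxia-inducible factors, which bind a core that ends in CGTG and starts with A or G. The form ACGTG was searched on both strands in RefSeq windows of 300 bases, from 250 before to 50 after the start (build GRCm38.p6), and all 10 enzymes matched by symbol, with 14 windows between them. At least 1 match was present for 7 of the 10 genes, against 21.8% of all genes, and in 8 of the 14 windows, against 19.6% of 32851. Gpi1, Pfkl and Tpi1 had no ACGTG, and the form that starts with G is not reported. The longer CACGTG, which contains ACGTG, was in 1 of the 10 genes (Ldha), against 8.09% of all genes, and in 1 of the 14 windows, against 7.15% of all windows. Hk2, Pkm and Ldha are shown because these enzymes stand at the entry and the end of the pathway. Pkm and Ldha have 2 windows each, and the one with the motif is printed. The other window of each, chr9:59656326-59656625 for Pkm and chr7:46846832-46847131 for Ldha, holds no ACGTG. Capitals mark ACGTG, or CACGT where the motif is on the other strand.
Hk2 promoter, chr6:82774405-82774704, minus strand: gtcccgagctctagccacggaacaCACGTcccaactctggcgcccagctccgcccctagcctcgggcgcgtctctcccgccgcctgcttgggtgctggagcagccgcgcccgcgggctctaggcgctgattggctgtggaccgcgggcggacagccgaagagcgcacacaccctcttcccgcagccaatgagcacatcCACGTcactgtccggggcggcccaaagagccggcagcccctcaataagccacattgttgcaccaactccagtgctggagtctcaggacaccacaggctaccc
Pkm promoter, chr9:59656977-59657276, plus strand: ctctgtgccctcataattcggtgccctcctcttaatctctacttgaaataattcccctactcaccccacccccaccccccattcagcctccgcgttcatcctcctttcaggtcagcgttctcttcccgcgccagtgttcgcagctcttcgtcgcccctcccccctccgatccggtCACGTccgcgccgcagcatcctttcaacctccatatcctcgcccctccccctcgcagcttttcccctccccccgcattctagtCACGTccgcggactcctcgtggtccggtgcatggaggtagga
Ldha promoter, chr7:46845554-46845853, plus strand: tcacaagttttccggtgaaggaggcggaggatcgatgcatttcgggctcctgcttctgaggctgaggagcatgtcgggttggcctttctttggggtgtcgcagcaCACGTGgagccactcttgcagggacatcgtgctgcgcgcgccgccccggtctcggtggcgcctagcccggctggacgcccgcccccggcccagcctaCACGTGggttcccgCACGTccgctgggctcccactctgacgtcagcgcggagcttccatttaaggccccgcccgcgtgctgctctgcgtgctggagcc
A match is a description of the sequence, and no binding was measured. The capitals mark 3 stretches in the Ldha window, of which 2 are CACGTG, 2 stretches in that of Hk2 and 2 in that of Pkm.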

How the data were processed

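Smart-seq2 libraries were made from column-purified RNA of the sorted microglia, per the labels' protocols. The deposited tables hold read counts per gene and RPKM values by the authors. The submitters' processing notes name bcl2fastq, Trim Galore, STAR, HTSeq and build mm10, without versions or settings; the column names say that top hits were kept, and the handling of strand and of reads with several equal matches is not given in the sources used here. The deposited RPKM is scaled by a total of which the gene counts are 68.9 to 74.6% in plasma-negative and 81.4 to 84.2% in plasma-positive libraries, so the main comparisons use RPKM between groups only as shares and ratios within a library, and the limma fits on RPKM are alternatives that this difference enters. Lengths recovered from the 2 tables were within 2% of the merged exon length in GENCODE M21 for 99.5% of 18488 genes. The 16 standard deviation columns of the tables were not used.

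Counts were tested with edgeR 4.0.16 (R 4.3.3; TMM factors, filterByExpr, quasi-likelihood F test, no covariate), with 4 against 4 libraries and Benjamini-Hochberg adjustment over all tested genes. The threshold for a call was an adjusted p of 0.05. CPM values use TMM factors, and logs a prior count of 2. Alternatives used DESeq2 1.42.0, limma 3.58.1 (voom with quality weights, and log2 of RPKM plus 1 or 0.1), other factors and filters, thinning to the smallest total, loess correction (span 0.3, fitted in each library) for the length and GC content of exons, the replicate number as a block, and leaving out each library. Scripts were tested on simulated data. Reads carry no molecular identifiers, so intervals cover counting and library spread only. The enzymes and lists were chosen with earlier results of these data known. Named genes are the 10 enzymes, their partner forms and Eno1, up to 3 called genes of each pathway list or else the member of highest mean CPM, the called genes of the marker lists it gives, and the 5 genes most like the mean of the enzymes.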

Additional observations from a re-analysis of the deposited data

Results flagged for a closer look

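Among 42 groups of 4 libraries checked for a single library far from the others, 3 held one, where chance gives about 5% of groups. Pgam1 was at 3.70 CPM in plasma-negative replicate 4, the library with the fewest counts, where the nearest of the other 3 was at 2.83 CPM. Aldoc was at 42.0 CPM in plasma-positive replicate 2, and the nearest other library of the group was at 10.9 CPM. The share of aldolase RPKM held by Aldoa was 91.7% in the same library, and the nearest other was 96.8%. That share is computed from the same Aldoc measurement.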

How the results depend on the processing

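The number of genes called was 187 in all, and 407 and 46 at adjusted p under 0.1 and 0.01. It was 694 with DESeq2, 447 and 432 with limma on log2 of RPKM plus 1 and plus 0.1, 66 with the length correction, 75 with length and GC correction, 74 with the replicate block, 18 with the block and both corrections, and 66 to 203 leaving out 1 library. Genes higher made up 59.9% of calls, but 28.2% with totals only, 86.8% and 85.6% with the RPKM fits, 47.8% with DESeq2, 49.8% after thinning, 70.3% with the block, and 74.7% and 77.8% with length and GC correction without and with it; the median log2 fold change of all genes was 0.0058, and then -0.11 with totals only and 0.11 and 0.16 with the RPKM fits. The number of the 10 enzymes called was 1, but 0 at adjusted p under 0.01, with relative log expression factors (Pkm adjusted p 0.0561), totals only (0.108), no filter (0.05002), the block (0.140), length (0.0875) or length and GC correction (0.101), the last with the block (0.258), and in all fits leaving out 1 library (range 0 to 0). The cause was not tested. The share tests say nothing of stability, since 1 share alone could not pass after adjustment over 4 and no share could with the replicate block, where the exact p cannot go below 0.125.

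Signs turned for 6 genes, none of them called. Ldha was -0.00585 with totals only, -0.0177 with the length correction, and -0.0454 and -0.0464 with length and GC correction, without and with the block. Pfkl was 0.00612 with voom, 0.0826 and 0.0912 with the RPKM fits, 0.0187 with the length correction, 0.0021 with both corrections and the block, and -0.187 to 0.0721 leaving out 1 library (positive without plasma-negative replicate 2 or plasma-positive replicate 3). Tpi1 was -0.0132 and -0.0555 with the length and the length and GC corrections, and -0.11 to 0.414 leaving out 1 library (negative without plasma-negative replicate 3 or plasma-positive replicate 1). Pfkm was -0.11 after thinning, Txnip -0.0029 with the length correction, and Tkt -0.0655 with totals only and -0.0040 to 0.16 leaving out 1 library (negative without plasma-negative replicate 2 or 3). Pgam1 was not tested after thinning.

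Libraries with the same replicate number did not deviate together (mean correlation across genes -0.0014, range -0.0131 to 0.0130). Not every library correlated best with its own number, and no pairing by number was seen. The check cannot show that libraries of the same number came from different animals or pools. Precision is limited for Pgk1 and Pgam1 by their 8 to 115 and 11 to 62 counts, and for each enzyme by 4 libraries a group.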
